A study of Mus musculus with 2 samples.

Results

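The genes described here are the heat shock and DnaJ chaperones of mouse skin, which are the Hspa, Hspb, Hspd, Hspe, Hsph, Hsp90, Dnaja, Dnajb and Dnajc genes. They were chosen by symbol, as every name with one of these stems and a number, and by having more than 3 counts in at least 1 library. Of 72 symbols with such a name in the table of 24421 symbols, 67 were measured by that rule, among 16255 measured genes in all. The other symbols were Dnajb8, Dnajc5b and Dnajc5g, each at 0 counts in both libraries, Dnajc22, with 1 count in control skin against 0 in stretched skin, and Hspb9, with 0 and 3.

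The RNA came from the whole layer of the back skin of wild type C57BL6/J mice. The control was non-stretched skin at 5 days and the treated sample was skin kept under a stretching device for 5 days at a labelled strain of 33%, with 1 library in each group. The methods describe such a strain as the initial one, raised in a small step each day. The methods describe the animals as 8-week-old female mice whose hair follicles were at rest at the start, and no label says how many animals gave each library. The comparison asks which genes differ in level after stretch. With 1 library per condition no difference has a replicate check, so no p-value is given, and a difference between the conditions cannot be told apart from one between the pieces of skin.

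Heat shock proteins are molecular chaperones that bind unfolded or damaged proteins and help them fold or pass to degradation. The HSP70 proteins (Hspa genes) work as ATP-driven clamps that DnaJ proteins load and start, the HSP90 proteins finish the folding of kinases and steroid receptors, and the small heat shock proteins (Hspb genes) hold unfolded proteins without using ATP. Separate sets serve the cytosol, the endoplasmic reticulum (ER) and the mitochondria. Heat and damaged protein induce many cytosolic and mitochondrial members through heat shock factor 1, and unfolded protein in the ER induces the ER set through the unfolded protein response. Skeletal muscle, which forms a thin sheet under mouse skin, is rich in small heat shock proteins.

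Sequences at the starts of some members carry the elements known for these controls. Windows of the RefSeq table on GRCm38.p6, from 250 bases before to 50 after a transcript start, matched 55 of the 67 members by symbol. The members without a window were Hspa8, Hspa9, Hspa13, Hsp90aa1, Hsp90ab1, Hspb2, Dnajc2, Dnajc5, Dnajc11, Dnajc12, Dnajc18 and Dnajc30. They were not searched, so nothing is known here of elements at their starts. Both strands were searched for the heat shock element as 3 units, GAANNTTCNNGAA, and for the ER stress response element, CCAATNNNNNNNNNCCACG, in which N is any base. The 3-unit heat shock element was found for 4 of the 55 members (7.27%), which were Hsph1, Dnajb6, Hspd1 and Hspe1, against 179 of all 27025 genes with a window (0.662%). The ER element was found for Hspa5, Hsp90b1 and Dnajc3, which are 5.45% of the members, against 37 of all genes (0.137%). These matches are shown because they mark the cytosolic, mitochondrial and ER members whose levels are given later, with the element in capitals and each sequence written along the strand of its gene. A match is a run of letters and not a measured binding site.
Hspd1, chr1:55088053-55088082, minus strand: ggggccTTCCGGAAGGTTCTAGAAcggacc
Hspe1, chr1:55088053-55088082, plus strand: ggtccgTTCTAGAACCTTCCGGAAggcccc
Hsph1, chr5:149636280-149636308, minus strand: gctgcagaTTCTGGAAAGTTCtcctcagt
Dnajb6, chr5:29735844-29735872, plus strand: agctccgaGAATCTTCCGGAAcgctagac
Hspa5, chr2:34772020-34772048, plus strand: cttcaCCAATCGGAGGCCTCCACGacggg
Dnajc3, chr14:118937822-118937850, plus strand: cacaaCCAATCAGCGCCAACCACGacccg
Hsp90b1, chr10:86705633-86705661, minus strand: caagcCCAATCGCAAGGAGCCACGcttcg
Hsp90b1, chr10:86705528-86705556, minus strand: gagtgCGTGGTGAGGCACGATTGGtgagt

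The Hspd1 and Hspe1 lines are one element read from either strand, since these neighbouring genes are transcribed away from each other. In both lines the capitals cover overlapping matches, so the run is longer than 1 match. The second Hsp90b1 line holds the ER element in the inverse direction. The shorter heat shock element of 2 units, GAANNTTC or its inverse arrangement TTCNNGAA, was found for 15 of the 55 members (27.3%) and for 4587 of all genes (17.0%), and every 3-unit match also holds it. Hspa1a and Hspa1b, the classic heat-induced HSP70 genes, each hold it once. Their 250 bases before the start are shown because they differ at 3 positions, which is how alike these copies are.
Hspa1a, chr17:34972157-34972406, minus strand: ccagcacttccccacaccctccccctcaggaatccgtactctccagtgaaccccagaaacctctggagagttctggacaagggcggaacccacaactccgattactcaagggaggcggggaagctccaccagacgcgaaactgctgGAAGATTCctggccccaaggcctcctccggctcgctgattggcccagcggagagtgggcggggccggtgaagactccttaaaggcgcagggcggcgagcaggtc
Hspa1b, chr17:34959239-34959488, minus strand: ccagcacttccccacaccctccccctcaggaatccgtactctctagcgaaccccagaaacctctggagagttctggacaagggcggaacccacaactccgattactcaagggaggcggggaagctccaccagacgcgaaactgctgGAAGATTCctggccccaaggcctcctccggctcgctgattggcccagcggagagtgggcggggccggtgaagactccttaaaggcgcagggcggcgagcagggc

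Control skin gave 14152379 counts in all and stretched skin 11648655. Levels in a library were scaled to its total as CPM, on which scale 3 counts are 0.212 in control and 0.258 in stretched skin. Changes are log2 ratios of CPM, stretched over control, each with an exact 95% Clopper-Pearson interval that covers counting error only. Over the 16255 measured genes the median log2 ratio was -0.12, and the TMM factors of edgeR would add 0.10 and the median of ratios of DESeq2 0.11 to every ratio. A ratio near -0.12 is therefore that of a typical gene, and here "higher" and "lower" refer to total counts. Levels are compared between genes as FPKM, the CPM per kilobase of exon. Keratinocyte markers, 8 of 9 measured, summed to 16009 CPM in control skin against 16579 in stretched skin and fibroblast markers, 9 of 9, to 41272 and 77685, so the cells of skin are present in both libraries. Hair matrix and shaft markers, 10 of 10 measured, summed to 9247 and 1640 CPM. In such bulk tissue, fewer cells of a type and less RNA per cell cannot be told apart.

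The median ratio of the chaperone genes was near that of all genes, and most single differences were small. On total counts, smaller shares of them than of all genes had an interval wholly above 0 or lay past 1.5-fold. The 67 members together had 148670 counts in control skin, which were 1.05% of the library, and 110058 in stretched skin, which were 0.945%. Their summed log2 ratio was -0.15 (interval -0.16 to -0.14) and their median was -0.16 (quartiles -0.36 and 0.06), near the median of all genes. With TMM their median was -0.053 and with the median of ratios -0.045. The ratio was below 0 for 44 members and above 0 for 23, and it lay below the median of all genes for 38. The interval was wholly below 0 for 27 members, wholly above 0 for 5, and included 0 for 35. Over all measured genes 33.5% of intervals lay wholly below 0 and 18.1% wholly above. These counts and shares are on total counts. With TMM 22 member intervals lay wholly below 0 and 14 wholly above, and with the median of ratios 22 and 16.

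Because chaperones are abundant, the same shares are also given for genes with 100 counts or more over the pair of libraries. Among those, 40.2% of genes had an interval wholly below 0, and so did 27 of the 63 members (42.9%), a share near the background. An interval wholly above 0 was found for 20% of such genes and for 5 of the 63 members. Past 1.5-fold, 5 members (7.46%) were lower (Dnajc6, Dnajb13, Hspa14, Hspb6 and Hspa2) and 1 (1.49%), Hspb3, was higher. Both shares were below the background, which was 14.1% of all genes lower and 12.3% higher. With at least 100 counts, 4 of the 63 members were past 1.5-fold lower and 1 higher, against 11.7% and 8.02% of genes. The study's methods kept genes whose FPKM values had a product above 10 and called a change of 2-fold or more, and they state no added value. Applied here with 1 added to each FPKM, such a rule left 59 members that could be called and called 1, Hspb3, on the higher side, where it called 2.61% of 10911 genes higher and 2.44% lower. With nothing added, 56 members could be called and again Hspb3 was the 1 called, against 2.94% of 9684 genes higher and 2.86% lower.

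**Figure D1:**
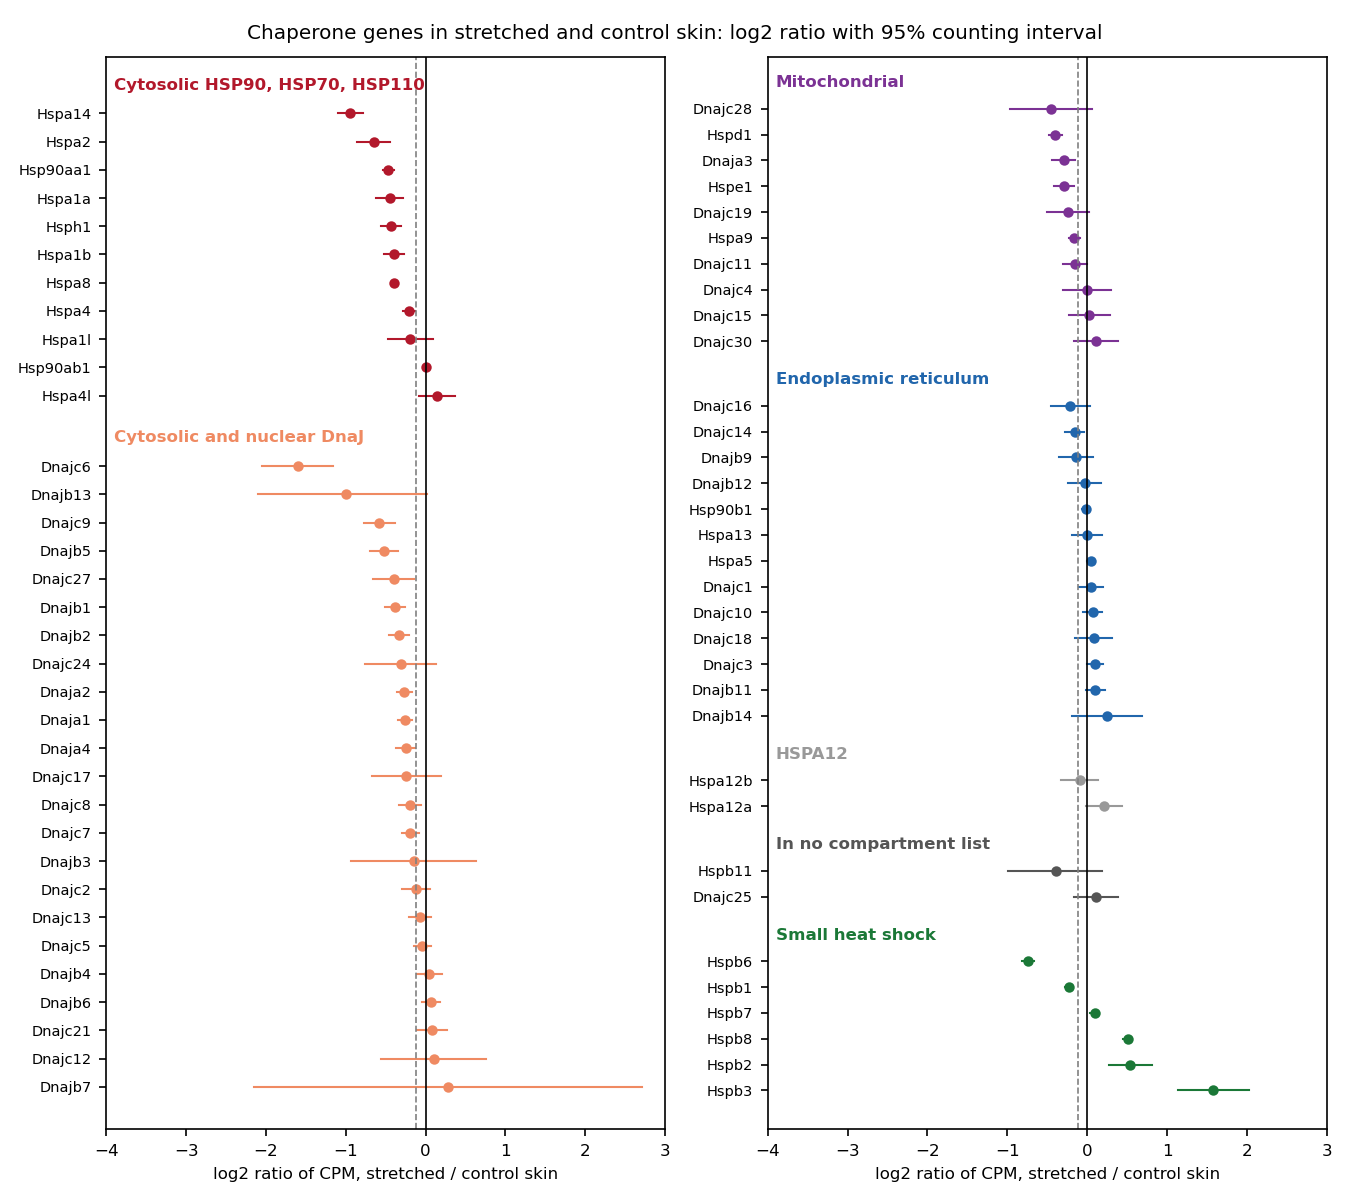
Log2 ratio of CPM, stretched over control skin, on the horizontal axis for each of the 67 measured chaperone genes, grouped by compartment, with exact 95% counting intervals as bars and a dashed line at the median of all measured genes. Most cytosolic genes lie left of that median, the endoplasmic reticulum genes lie close to 0, and the small heat shock genes spread from -0.74 (Hspb6) to 1.57 (Hspb3).

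The medians of the compartments ranged from below to above that of all genes. The 11 measured cytosolic HSP90, HSP70 and HSP110 genes had a median log2 ratio of -0.40 (quartiles -0.46 and -0.20), with 9 ratios below 0 and 8 intervals wholly below 0 (72.7%). The 23 measured cytosolic and nuclear DnaJ genes, of 27 listed, had a median of -0.24, with 18 below 0 and 11 intervals wholly below (47.8%). The 10 mitochondrial genes had a median of -0.20, with 8 below 0 and 5 intervals wholly below (50%). Beside the 33.5% of all genes and 40.2% of those with 100 counts or more, the shares of the DnaJ and mitochondrial lists were near the background. On total counts these 3 lists had no interval wholly above 0, while with the median of ratios the cytosolic HSP list had 2 (Hsp90ab1 and Hspa4l) and 8 below, the DnaJ list 3 (Dnajb4, Dnajb6 and Dnajc21) and 9 below, and the mitochondrial list 0 and 3 below. The 13 ER genes lay elsewhere, with a median of 0.05 (quartiles -0.03 and 0.08), 8 ratios above 0 and 11 intervals that included 0. The summed ratio was -0.25 (interval -0.27 to -0.23) for the cytosolic HSP genes, -0.21 (-0.24 to -0.18) for their DnaJ partners, -0.24 (-0.28 to -0.20) for the mitochondrial genes and 0.02 (-0.01 to 0.04) for the ER genes. The interval of the ER sum does not overlap those of the other 3, which concerns these libraries and not the conditions. Beside the lower lists, the hair matrix and shaft markers were all lower, with a median of -2.48, and so were the 8 adipocyte markers, all measured, with a median of -0.70 and sums of 2571 and 1645 CPM. The part of these cells in the cytosolic and mitochondrial results was not tested.

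**Figure D2:**
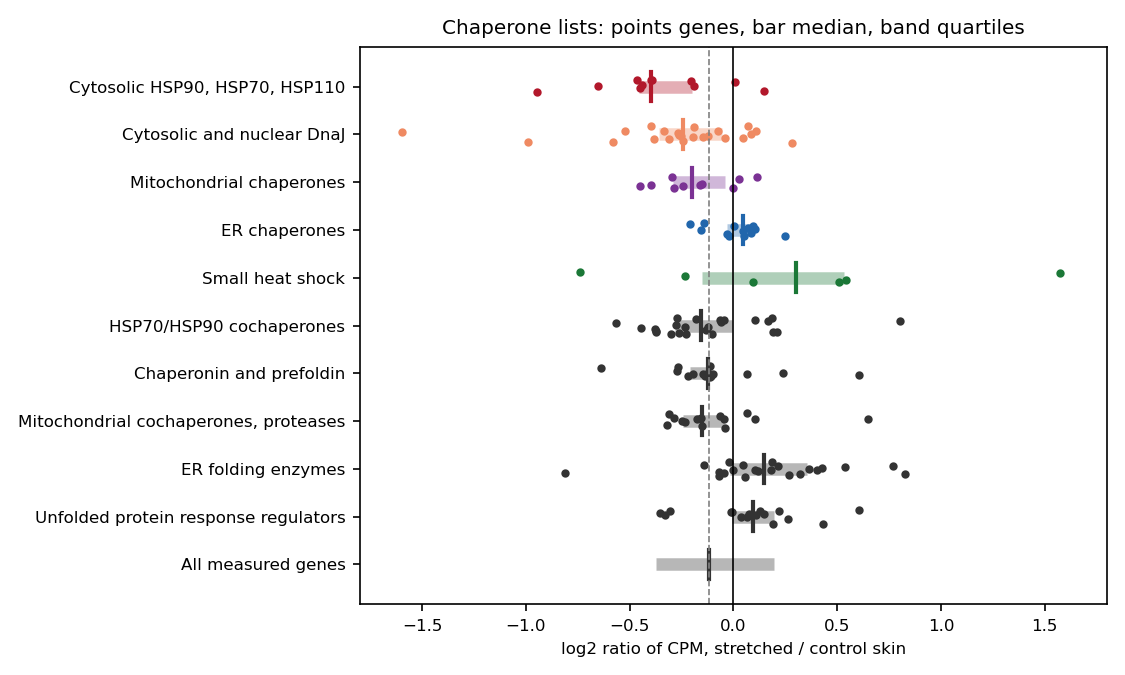
Log2 ratios of the measured genes in each list on the horizontal axis, for the members in colour and for their cochaperones, folding enzymes and regulators in black. Points are genes, the upright bar is the list median, the band spans the quartiles, and the dashed line is the median of all measured genes, whose row has no points. The cytosolic HSP list (median -0.40) lies left of the line and the endoplasmic reticulum list (median 0.05) right of it.

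Hspa8, the constitutive HSP70 that carries most of the folding of new protein, was the chaperone gene with the most counts. It had 29387 counts in control skin against 18428 in stretched skin, a log2 ratio of -0.39 (interval -0.42 to -0.37), and its level went from 483 to 368 FPKM. It lies on chromosome 9 of GRCm38, the build mm10, from 40800984 to 40810087, and shares 32.8% of its 76-base stretches, the length of a read, with other genes, mostly the pseudogene Gm15459. Hspa1a had 779 and 470 counts (-0.45, -0.62 to -0.28) and Hspa1b 1470 and 919 (-0.40, -0.52 to -0.28). Both heat-induced copies were lower to a like extent, but 61.5% and 55.6% of their stretches are shared, mostly with each other, so how reads were divided between them is uncertain. Hspa1l, their neighbour, had 254 and 183 counts with an interval that included 0 (-0.19, -0.47 to 0.09), and 71.9% of its exonic bases lie inside the antisense gene Gm10501. The kit does not mark strand, so reads from a gene and its antisense partner cannot be told apart.

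**Figure D3:**
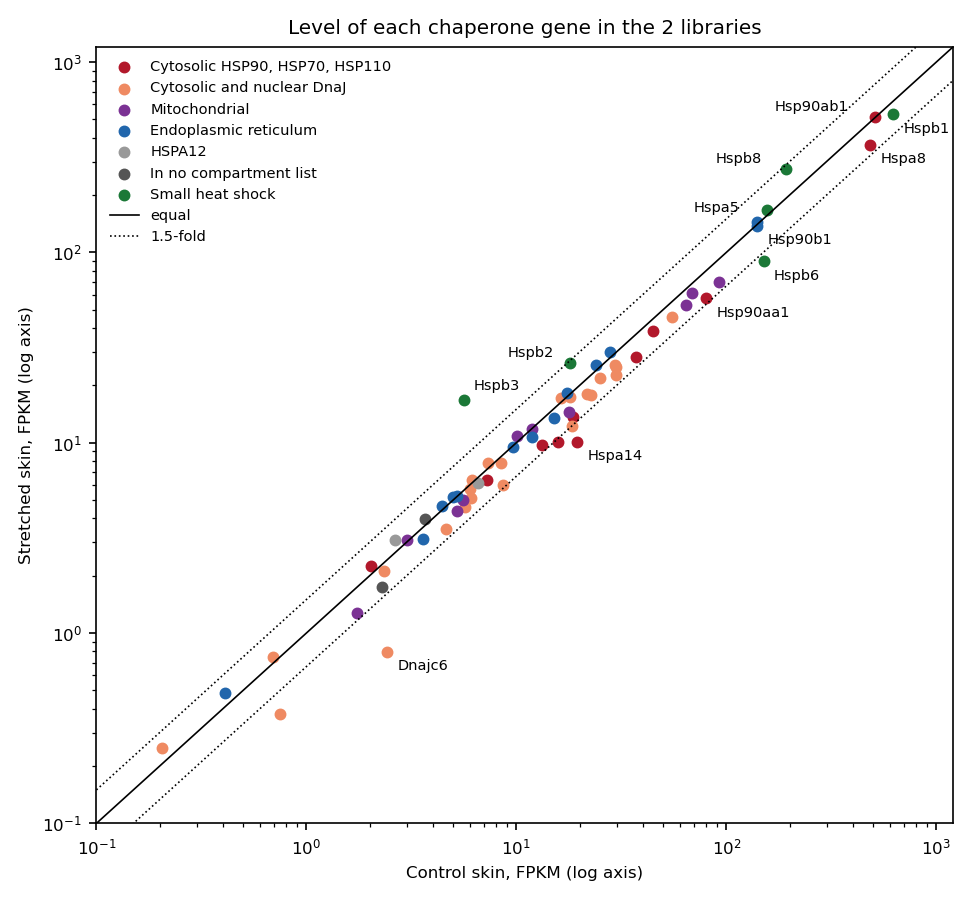
Level in FPKM of chaperone genes in control and stretched skin on logarithmic axes, coloured by compartment, with a solid line of equal levels and dotted lines at 1.5-fold. Hspb1, Hsp90ab1 and Hspa8 have the highest levels in both libraries, and Hspa8 (483 and 368 FPKM) lies below the line while Hspb8 (193 and 274 FPKM) lies above it.

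The pair of cytosolic HSP90 genes differed. Hsp90aa1, the stress-inducible form, had 4438 counts in control skin against 2644 in stretched skin (-0.47, -0.54 to -0.40). Hsp90ab1, the constitutive form, had 21632 and 17888 counts and a ratio of 0.01 (-0.02 to 0.04), that is 510 and 512 FPKM. The share of Hsp90aa1 in the counts of both went from 17.0% (interval 16.6% to 17.5%) to 12.9% (12.4% to 13.3%), and such a share does not depend on how the libraries are scaled. Hsp90aa1 shares 42.6% of its stretches with other genes, mostly Gm12346, and Hsp90ab1 shares under 1%. Hsph1 (HSP110), which recharges HSP70 with ATP, had 1360 and 826 counts (-0.44, -0.56 to -0.31) and shares none of its stretches. Its relative Hspa4 had 3499 and 2495 (-0.21, -0.28 to -0.13), while the interval of Hspa4l, with 339 and 309, included 0 (0.15, -0.08 to 0.37).

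The lowest ratios of this group belonged to genes outside the heat response. Hspa14, which with Dnajc2 forms the complex that meets new protein at the ribosome, had 1120 and 479 counts (-0.94, -1.10 to -0.79), or 19.5 and 10.1 FPKM. It lies on chromosome 2 from 3488850 to 3512814, and 7.91% of its exonic bases lie inside Gm45902. Dnajc2 itself had 603 and 456 counts and a ratio of -0.12 (-0.30 to 0.06), so the partners were not lower to the same degree. Hspa2, an HSP70 known for its role in male germ cells, had 594 and 311 counts (-0.65, -0.86 to -0.45). All 6 spermatid and testis markers were at 0 counts in both libraries.

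The cytosolic genes listed as heat-inducible had a median below that of all genes. The 9 genes, which include Hspa8, had a median of -0.39 (quartiles -0.44 and -0.26), with 7 intervals wholly below 0 (77.8%, against 33.5% of all genes and 40.2% of those with 100 counts or more) and none above on total counts, or 7 and 2 with the median of ratios. Hspa8 held 69.1% of the counts of this list in control skin. Without it the median of the other 8 was again -0.39, with 6 intervals wholly below 0 (75%), and they summed to 928 CPM in control skin against 728 in stretched skin (-0.35, -0.39 to -0.31). The genes that share under 10% of their stretches with other genes were 4 of these, and they divide into a lower pair, Hsph1 and Dnajb1, and a pair whose intervals include 0, Hspa4l and Dnajb4, so their median was -0.17. Dnajb1 (HSP40), the usual DnaJ partner of the inducible HSP70, had 1348 counts in control skin against 851 in stretched skin (-0.38, -0.51 to -0.26). Dnaja1 had 2643 and 1813 (-0.26, -0.35 to -0.18), while Dnajb4 had 761 and 647 (0.05, -0.11 to 0.20). Of the regulators, Hsf1, the factor that drives the heat response, had 629 and 453 counts (-0.19, -0.37 to -0.02). Hsf2, with 423 and 398 counts (0.19, -0.0081 to 0.39), and Hsf4, with 52 and 50, had intervals that included 0. Under each of the other 4 scalings the interval of Hsf1 included 0 and that of Hsf2 lay wholly above it, at 0.30 (0.10 to 0.50) with the median of ratios. Hsf3 and Hsf5 were at or under 3 counts.

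Among the other cytosolic DnaJ genes, Dnajc6 had the lowest ratio of all 67 members. It encodes auxilin, which brings HSP70 to clathrin coats and is best known in nerve cells, and lies on chromosome 4 from 101496648 to 101642799. Its reads were 202 counts in control skin against 55 in stretched skin (-1.60, -2.05 to -1.16), or 2.42 and 0.799 FPKM, which was too low a level for the study's filter. Dnajc9, a chaperone of histones, had 618 and 340 counts (-0.58, -0.78 to -0.39), and Dnajb5 had 723 and 414 (-0.52, -0.70 to -0.35). Dnajc27, a small GTPase with a J domain, had 333 and 208 (-0.40, -0.65 to -0.14). Dnajb13, a part of the ciliary axoneme, was measured on 29 and 12 counts with an interval that just included 0 (-2.10 to 0.02).

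On total counts no interval of this list was wholly above 0. Dnajb6, which keeps aggregation-prone proteins soluble and is mutated in a limb-girdle muscular dystrophy, had 1404 and 1215 counts (0.07, -0.04 to 0.18), and with the median of ratios its interval lay wholly above 0. It shares 19.0% of its stretches with other genes. The 4 Dnaja genes, the mitochondrial Dnaja3 among them, all had intervals wholly below 0 and a median of -0.26. The background was 33.5% of all genes and 40.2% of those with 100 counts or more. With the median of ratios the median was -0.15 and the 4 intervals stayed below 0. Of the exonic bases of Dnaja4, 44.1% lie inside Wdr61. The 12 measured Dnajb genes had a median of -0.09 and the 25 Dnajc genes one of -0.12, which is that of all genes. With the median of ratios the Dnajb median turned positive (0.023).

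The cochaperones that work with cytosolic HSP70 and HSP90 were more mixed. Of 24 genes, 18 had ratios below 0 and 6 above, 13 intervals lay wholly below 0 (54.2%, or 9 with the median of ratios) and 5 wholly above (20.8%), and the median was -0.16. The background for these and the following lists is the 33.5% of all genes, or 40.2% of genes with 100 counts or more, below 0 and the 18.1% or 20% above, so the share above was that of the background. The lowest was Fkbp4, a steroid receptor cochaperone of HSP90, with 3427 and 1904 counts (-0.57, -0.65 to -0.49). The highest was Itgb1bp2, which encodes melusin, an HSP90 cochaperone of striated muscle, with 856 and 1229 counts (0.80, 0.68 to 0.93). The 15 genes of the cytosolic chaperonin and prefoldin, which fold actin and tubulin, had a median of -0.12 with 11 intervals below 0. Among those with at least 100 counts, Pfdn4 (204 and 108 counts, -0.64, -0.99 to -0.29) was the lowest and Pfdn5 (982 and 955 counts, 0.24, 0.11 to 0.37) the highest, and 28.7% and 11.8% of their exonic bases lie inside other genes. With the median of ratios of DESeq2 those 11 intervals became 3, so this list followed the scaling.

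ER chaperones kept their share of the library. Hspa5 (BiP), the HSP70 of the ER and the standard marker of the unfolded protein response, had 8338 counts in control skin against 7090 in stretched skin, a log2 ratio of 0.05 (0.0011 to 0.09), or 139 and 144 FPKM. It lies on chromosome 2 from 34771970 to 34777547. Hsp90b1 (GRP94), the HSP90 of the ER, had 7990 and 6488 counts (-0.02, -0.07 to 0.03), with 15.7% of its exonic bases inside other genes. Both are among the 3 members whose windows hold the ER element, and the other, Dnajc3, an HSP70 partner that also restrains the kinase PERK, had 1747 and 1534 counts (0.09, -0.01 to 0.19). The ratio of each lies above the median of all genes, as does that of 10 of the 13 ER genes, these 3 included.

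The remaining ER genes stayed in a narrow range. Dnajb11, a soluble partner of BiP, had 1284 and 1134 counts (0.10, -0.01 to 0.22). Dnajc10, a disulfide reductase, had 1235 and 1068 (0.07, -0.05 to 0.19), and Dnajb9 (ERdj4), which serves ER-associated degradation, had 428 and 319 (-0.14, -0.36 to 0.07). These luminal partners all had intervals that included 0. The same held for Hspa13 (505 and 416 counts), Dnajb12 (461 and 371), Dnajb14 (91 and 89), Dnajc1 (822 and 700), Dnajc16 (332 and 236) and Dnajc18 (343 and 299). Dnajc14, a membrane protein, was the exception with 1398 and 1033 counts (-0.16, -0.27 to -0.04), and 19.9% of its exonic bases lie inside other genes. With the median of ratios 6 of the 13 ER intervals lay wholly above 0 and none below, against 1 and 1 with total counts, and the ratio of Hsp90b1 turned positive (0.09).

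The folding enzymes around them differed more. Of 25 listed ER folding enzymes and cochaperones 22 were measured, with a median of 0.15 (quartiles -0.02 and 0.35), 12 intervals wholly above 0 (54.5%, against 18.1% of all genes) and 4 below (18.2%, against 33.5%). With the median of ratios they were 15 and 1. Fkbp10, a prolyl isomerase that folds collagen, had 1134 and 1654 counts (0.83, 0.72 to 0.94). Ero1l, the oxidase that supplies disulfide bonds, had 1329 and 624 (-0.81, -0.95 to -0.67). Serpinh1 (HSP47), the heat shock protein devoted to collagen, belongs to another gene family and had 12083 and 13348 counts (0.42, 0.39 to 0.46). It was named after its value was seen. The fibroblast markers, among them the collagen genes Col1a1, Col1a2 and Col3a1, had a median of 0.87, with all 9 higher. Of the plasma cell markers, another secretory cell, the defining Jchain had 1 and 0 counts, Mzb1 6 and 2, and Tnfrsf17 5 and 3. The rest of that list, Sdc1, Xbp1 and Prdm1, which other cells of skin also express, made up nearly all of its sum of 731 and 625 CPM. The part of these cells in the ER result was not tested.

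Among the mitochondrial chaperones the chaperonin genes had intervals wholly below 0. Hspd1 (HSP60), the chaperonin of the mitochondrial matrix, had 3448 counts in control skin against 2153 in stretched skin (-0.40, -0.48 to -0.32). Hspe1 (HSP10), its lid, had 1346 and 907 (-0.29, -0.41 to -0.17). They lie side by side on chromosome 1, Hspd1 from 55077835 to 55088243 and Hspe1 from 55088132 to 55091307, and the heat shock element printed earlier lies at their common start. Hspd1 made up 71.9% of the counts of the pair in control skin (70.6% to 73.2%) and 70.4% in stretched skin (68.7% to 72.0%), so the difference of the shares was not detectable at this depth. Hspd1 shares 30.7% and Hspe1 14.4% of its stretches with other genes, among them the pseudogene Hspd1-ps3.

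Hspa9 (mortalin), the mitochondrial HSP70 that draws imported protein into the matrix, was closer to the typical gene, with 4166 and 3068 counts (-0.16, -0.23 to -0.09). Its DnaJ partner Dnaja3 had 987 and 662 (-0.30, -0.44 to -0.15), and Dnajc11, a protein of the cristae, 842 and 624 (-0.15, -0.30 to -0.00031). With the median of ratios the intervals of Hspa9 and Dnajc11 included 0. The intervals of the import partners Dnajc19 (296 and 206 counts) and Dnajc15 (278 and 233) and of Dnajc28 (88 and 53), Dnajc4 (208 and 171) and Dnajc30 (236 and 210) included 0. The 14 mitochondrial cochaperones and proteases had a median of -0.15 with 7 intervals below 0, a share of 50% that is near the 40.2% of genes with 100 counts or more and became 4 genes with the median of ratios. The interval above 0 was that of the protease Htra2 (305 and 394 counts, 0.65, 0.43 to 0.87), which has 43.7% of its exonic bases inside another gene. The lowest among them was Grpel2, a nucleotide exchange factor of mortalin (706 and 466 counts, -0.32, -0.49 to -0.15).

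The small heat shock genes were the group whose ratios spread furthest. Of 7 listed genes 6 were measured, with a median of 0.30 and no interval that included 0. The interval lay wholly above 0 for 4 (66.7%), against 18.1% of all genes and 20% of those with 100 counts or more. It lay wholly below 0 for 2 (33.3%), against 33.5% and 40.2%, so that share was near the background. Their summed counts lay on the other side of 0 from that median, at a log2 ratio of -0.025 (-0.05 to 0.0011), that is 1818 and 1786 CPM, since Hspb1 and Hspb6 hold many of the counts. Hspb3, a small heat shock gene of differentiating and mature muscle, had 62 counts in control skin against 152 in stretched skin (1.57, 1.14 to 2.02), or 5.61 and 16.7 FPKM. It lies on chromosome 13 from 113662896 to 113663676 and shares no stretch with another gene. Hspb8, which works with the cochaperone Bag3 to clear damaged filament proteins of muscle, had 5316 and 6216 counts (0.51, 0.45 to 0.56), or 193 and 274 FPKM. Bag3 itself, also named after its value was seen, had 1578 and 1209 counts (-0.10), close to the median of all genes. Hspb7, a heart and muscle form, had 6137 and 5393 counts (0.09, 0.04 to 0.15).

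**Figure D4:**
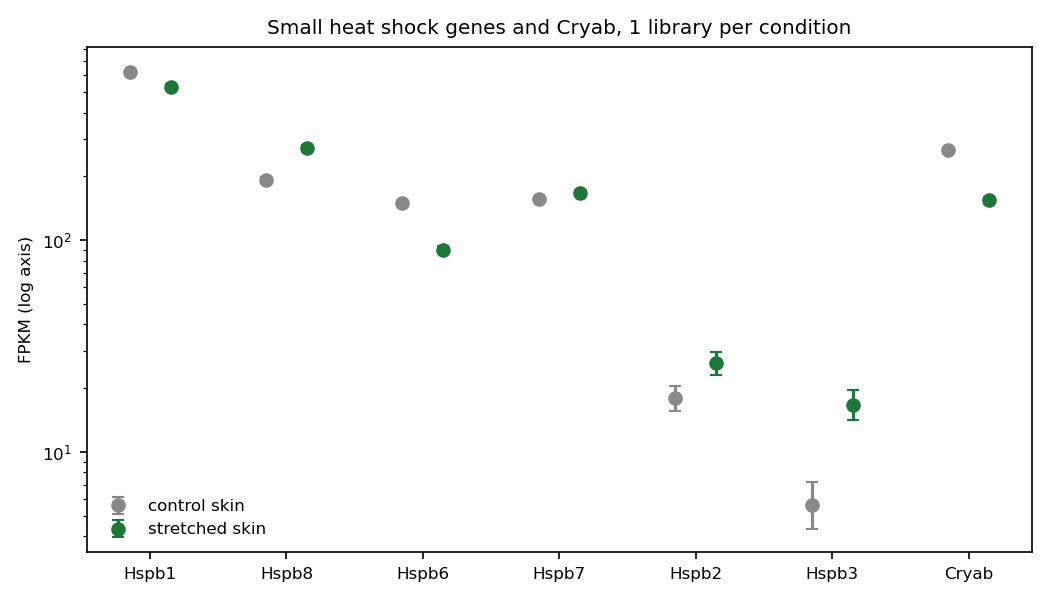
Level in FPKM of the 6 measured small heat shock genes in control and stretched skin, and of Cryab, with exact 95% Poisson intervals of the counts as error bars, on a logarithmic axis. Hspb6, Hspb1 and Cryab are lower in stretched skin, while Hspb3, Hspb2 and Hspb8 are higher and Hspb7 is nearly level.

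On the other side, Hspb6 (HSP20), a muscle form that binds actin regulators, had 4898 counts in control skin against 2413 in stretched skin (-0.74, -0.81 to -0.67), or 151 and 90.1 FPKM. It lies on chromosome 7 from 30552178 to 30555443, with 8.79% of its exonic bases inside other genes. Hspb1 (HSP25), which is made in epidermis as well as muscle, had 9099 and 6377 counts (-0.23, -0.28 to -0.19) and the highest level of all members per length in both libraries, at 624 and 531 FPKM. It shares 46.3% of its stretches with other genes, mostly Hsp25-ps1. Counted against Hspb8 in the same library, Hspb6 went from 48.0% (47.0% to 48.9%) of the pair to 28.0% (27.0% to 28.9%). Hspb1 went from 63.1% (62.3% to 63.9%) to 50.6% (49.8% to 51.5%). The intervals of each pair do not overlap between the libraries. This follows from the ratios already given and concerns counting error only.

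Hspb2 and Cryab lie head to head and are both muscle genes, Cryab being the small heat shock protein alpha-B-crystallin under another name. Hspb2 had 212 and 254 counts (0.54, 0.27 to 0.81) while Cryab had 5557 and 2658 (-0.78, -0.85 to -0.72). Hspb2 was thus 3.67% (3.20% to 4.19%) of the pair in control skin and 8.72% (7.72% to 9.81%) in stretched skin. Hspb2 lies on the minus strand of chromosome 9 from 50751078 to 50752354 and Cryab on the plus strand from 50751325 to 50756636, so 30.2% of the exonic bases of Hspb2 lie inside Cryab. Without strand, reads there cannot be told apart, and without Hspb2 the median of the small heat shock genes was 0.094.

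Muscle markers differed between the libraries beside these genes. The 20 skeletal muscle markers, all measured, summed to 41549 CPM in control skin against 30089 in stretched skin, with a median of -0.44 and 16 of them lower, while Myh1, Myh2, Mb and Cacna1s were higher. The 10 markers of embryonic and regenerating muscle, all measured and all higher, summed to 117 and 1530 CPM with a median of 3.96. The macrophage markers, 12 of 12 measured, summed to 966 and 2280 CPM. The part of these cell types in the chaperone results was not tested.

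Windows of 15 measured members hold the 2-unit heat shock element. Of these, 10 had intervals wholly below 0, 2 wholly above (Hspb3 and Hspb8) and 3 including 0. Among all measured genes 33.5% of intervals lay wholly below 0 and 18.1% wholly above. Among genes with 100 counts or more the shares were 40.2% and 20%. With the median of ratios the 3 that included 0, Dnajb4, Dnajb6 and Dnajc10, had intervals wholly above 0. The 2-unit element was found for 5 of the 7 heat-inducible genes with a window (71.4%). Hspa8 and Hsp90aa1 of that list have no window. The element was also found for 4 of the 5 measured small heat shock genes with a window (80%), which were Hspb1, Hspb3, Hspb6 and Hspb8. Among all genes with a window the share was 17.0%. The heat shock genes of no listed compartment were few. Hspa12a had 345 and 329 counts (0.21, -0.01 to 0.43) and Hspa12b, its endothelial relative, 344 and 265 (-0.10, -0.33 to 0.14). Hspb11, which despite its name is a part of intraflagellar transport, had 67 and 42 (-0.39, -0.99 to 0.18), and Dnajc25 had 236 and 210 (0.11, -0.16 to 0.39).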

How the data were processed

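RNA of 1 control and 1 stretched library was made with the TruSeq RNA kit v2, which does not mark strand. Per the methods of the study, single-end reads of 76 bases were filtered with FASTX-Toolkit 0.0.13.2 (Phred 20, longer than 35 bases) and aligned to mm10 with TopHat2 2.1.0. The authors deposited a raw count of reads per gene symbol, which is the only unit used here. The counter, its annotation and its handling of strand and shared reads are not given in the sources used here, and the FPKM values made with Cufflinks were not used.

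CPM used the summed counts of each library. Counts of 3 or fewer were set to 3. FPKM was computed from the counts and the union of exons in GENCODE M21 (23384 symbols matched by name, 657 by synonym, 380 had no length). Exact Clopper-Pearson intervals at 95% cover counting error only, and PCR reads are not independent molecules. Shared stretches are the share of 76-base windows of a gene's transcripts found in another gene. With 1 library per condition, no test over replicates could be made.

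The members and lists were chosen with earlier results of these data known. Named were every Hsp member, the Dnaj members of the ER and mitochondria, Dnajb1, Dnaja1, Dnajb6, the 5 Dnaj members with the highest and the 5 with the lowest ratio among those with at least 100 counts over both libraries, and the highest and lowest gene of each pathway list. Named in addition, with their values known, were genes past 1.5-fold, other members that hold an element, overlap another gene or change with the scaling (such as Dnaja4, Dnajb4 and Dnajc21), Dnajc2, Hsf2, Serpinh1, Bag3, Atf4, and markers listed beside a result. Members without a promoter window were also named. Alternatives were scaling by upper quartile, by the median of ratios (DESeq2 1.42.0), by TMM (edgeR 4.0.16) or by totals that leave out the 50 most counted genes, 1 CPM added, at least 20 counts, other filters for the study's rule, and lists without genes that share stretches or exons. The calculations were tested on simulated data. The software was R 4.3.3 and Python 3.11.15, with scipy 1.17.1, matplotlib 3.10.9, pandas 2.3.3 and numpy 2.4.6.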

Additional observations from a re-analysis of the deposited data

How the results depend on the processing

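No paired analysis was possible because each condition has 1 library, which also means that none could be left out. Each scaling adds a constant to every log2 ratio. It was 0.10 for the TMM factors, 0.11 for the median of ratios, 0.10 for the upper quartile and 0.06 for totals that leave out the 50 most counted genes. In that order, the median of the small heat shock genes, and of the same genes listed as those of muscle, went from 0.30 to 0.40, 0.41, 0.40 and 0.36. Members past 1.5-fold higher went from 1 to 3, 3, 3 and 2, and members with an interval wholly above 0 from 5 to 14, 16, 14 and 11. Those with an interval wholly below 0 went from 27 to 22, 22, 22 and 24.

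Without members that share 10% or more of their stretches, the median of the heat-inducible genes was -0.17 in place of -0.39, with fewer genes. Leaving out members that have 10% or more of their exonic length inside another gene, an alternative chosen after seeing the data, the small heat shock median was 0.094, since only Hspb2 leaves the list. With CPM in place of FPKM in the study's rule, 1 member in place of 0 was called lower, Dnajc6. Without Hspa8, also chosen after seeing the data, the heat-inducible median stayed at -0.39. With TMM and the median of ratios the median of all members went from -0.16 to -0.053 and -0.045, of the cytosolic HSP genes from -0.40 to -0.29 and -0.29, of the cytosolic DnaJ genes from -0.24 to -0.14 and -0.13, of the mitochondrial genes from -0.20 to -0.098 and -0.091, and of the ER genes from 0.05 to 0.15 and 0.16, with no change of sign. The Hspa12 genes and the members of no compartment were not recomputed as lists. The median of the Dnajb genes, -0.088, turned positive under TMM (0.015), median of ratios (0.023) and upper quartile (0.014). For the mitochondrial cochaperones, the intervals below 0 went from 7 to 4 under these scalings, and for the ER folding enzymes from 4 to 1. Ratios of single members near 0 changed sign, 6 under TMM, 6 under median of ratios, 6 under upper quartile (Dnajb12, Dnajc13, Dnajc4, Dnajc5, Hsp90b1 and Hspa12b) and 4 without the top 50 genes, each with an interval that included 0 on total counts. No member with an interval off 0 changed sign. Of 67 single genes, 16 moved under TMM, 17 under median of ratios, 16 under upper quartile and 7 without the top 50 genes. Depth limits Dnajb7 (4 and 4 counts), Dnajb13 and Dnajb3 most.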

Other observations

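The regulators of the unfolded protein response were mixed. Of 16 regulators and degradation genes, 11 had ratios above 0 and 5 below, with a median log2 ratio of 0.09. The interval lay wholly above 0 for 5 (31.2%, against 18.1% of all genes), wholly below for 3 (18.8%, against 33.5%), and included 0 for 8. Atf4, a transcription factor that stress kinases raise at the level of translation, had 2978 counts in control skin against 2851 in stretched skin (0.22), and was named after its value was seen. Trib3, one of its targets, had 48 and 60 counts (0.60, 0.03 to 1.18). Ern1, which encodes the ER stress sensor IRE1, had 236 and 152 counts (-0.35, -0.66 to -0.05). With the median of ratios 10 of the 16 intervals lay wholly above 0 and 2 wholly below, so how many genes of this list were higher depended on the scaling.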
